A study of Sus scrofa with 6 samples.

Results

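The genes described here are the initiation factors of translation, the kinases that phosphorylate eIF2 and the proteins that bind eIF4E. They were taken as all rows of the table whose pig Ensembl identifier maps to a symbol that starts with EIF and a digit. This gave 46 of 20731 rows, of which 45 had a mean of at least 1 FPKM and were among the 10950 genes tested. FPKM divides a gene's fragments by its length and by the library size, so that levels of different genes can be set side by side. The remaining row was EIF4E1B, an eIF4E relative best known from the oocyte, with 0 to 3 reads in a library. EIF4EBP3 has a symbol but no row, and EIF2S3, EIF2B1, EIF3C, EIF3K, EIF5 and EIF5A were not reached by the symbol match, so they were not analysed here.

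The libraries came from immature pig Sertoli cells, the supporting cells of the seminiferous tubules in the testis. There were 3 libraries labelled Control and 3 labelled MT, and the MT cells had received 10 nM melatonin, a pineal hormone, over 36 h. No genotype change, solvent or time in culture is given for the Control cells, and the labels do not say whether replicates are separate cultures or animals. P-values thus measure only how these libraries vary, and that variation may be technical.

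Translation of most mRNAs starts when eIF4E binds the cap, the scaffold eIF4G and the helicase eIF4A join it, and eIF3 brings in the small ribosomal subunit with eIF1, eIF1A and eIF2 carrying the initiator tRNA. Control acts mainly at 2 steps. Kinases that answer to haem, double-stranded RNA, unfolded protein or uncharged tRNA phosphorylate the alpha subunit of eIF2, which then blocks its exchange factor eIF2B. The 4E-BP proteins hold eIF4E away from eIF4G until the kinase TOR phosphorylates them. RNA levels do not show phosphorylation, so neither step was measured directly.

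Library totals, recovered from the step size of low values, lay between 19579279 and 21500665 reads, and the 45 genes rested on 128 to 29376 reads per library. Control 3 stood apart, at 40.4 on the component with 68.2% of the variance, against -22.0 and -21.7 for Control 1 and Control 2 and -10.4 to 7.52 for MT, so MT lay nearer to it than the other Control libraries did. On the next component (16.5%) Control 3, at -12.1, lay with Control (-12.3 to -6.46) and apart from MT (7.60 to 13.7). NUPR1, a stress-response gene, stood at 12.4, 12.4 and 11.9 FPKM in Control against 29.2, 26.3 and 27.5 in MT. Whether Control 3 carries the right label was not tested, and each result without it rests on leaving it out. Of 13 Sertoli markers, 10 were in the table and 7 had a mean of at least 1 FPKM, with WT1 at 10.0 to 12.8 FPKM, AMH at 11.3 to 15.6 and SOX9 at 1.61 to 2.40. DHH, KITLG and INHA were at most 0.10 FPKM in all 6 libraries. Of 6 Leydig markers 3 were in the table, STAR at 2.12 to 2.68 FPKM, CYP11A1 at 1.46 to 2.47 and CYP17A1 at most 0.03, and they summed to 3.85 to 4.35 in Control and 3.74 to 4.87 in MT. Of 6 germ cell markers 2 were in the table, UCHL1 at 0.66 to 1.35 FPKM and DDX4 at most 0.03, with sums of 0.67 to 1.35 in Control and 1.02 to 1.25 in MT. Among markers of other cells, ACTA2 of myoid cells at most 0.21 and the endothelial PECAM1 at most 0.31. The myoid list, of which 2 of 5 genes had a mean of at least 1 FPKM, summed to 160.3 to 264.8 FPKM in Control against 161.7 to 194.2 in MT, nearly all of it TAGLN. The leukocyte list, with 2 of 4, summed to 9.38 to 12.2 FPKM in Control against 11.6 to 13.3 in MT, from CD14 and CD68. Their part in the results was not tested.

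The comparison of MT with Control asks how the RNA of the initiation machinery differs in Sertoli cells kept with melatonin. Over all 6 libraries, 0 of 45 had an adjusted p under 0.05 in limma on log2(FPKM + 1), as did 0 of all 10950 genes (0.00%). At an unadjusted p under 0.05 limma had 1 of the 45 (2.22%), EIF4G1, against 4.72% of all tested genes. Limma voom, run on the recovered reads, also passed 0, with 1 under an unadjusted 0.05. In log2 difference, 27 genes were higher in MT and 18 lower, where 56.0% of all tested genes were higher. The median was 0.04, against 0.02 over all tested genes. In bulk samples, fewer cells of a type and less RNA per cell cannot be told apart. MT and Control values did not overlap in 3 of 45 genes (6.67%), EIF4B, EIF3H and EIF4G1, against 11.2% of all tested genes. Values did not overlap in 26 genes (57.8%) without Control 3, against 56.2% of all tested genes, and in 3 (6.67%) without MT 3, against 15.2%.

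Without Control 3, 7 of 45 genes (15.6%) passed in limma, against 10.9% of all tested genes. Those that rose in MT were EIF4EBP1, EIF3D and EIF3F, which is 3 of 45 (6.67%) against 4.28% of all tested genes. Those that fell were EIF4E, EIF2S1, EIF4G2 and EIF1AY, which is 4 of 45 (8.89%) against 6.62%. With another library also left out, limma passed 0 of the 45 without Control 1, Control 2 or MT 1, where 0.201%, 0.0731% and 0.247% of all tested genes passed. It passed 1 without MT 3 (EIF4EBP1), against 1.81% of all tested genes. Without MT 2 it passed 21 (46.7%), against 40.6%. Such fits have fewer libraries, and with a lone Control library it is assumed to vary like the MT libraries. Over the 5 libraries 18 genes were higher and 27 lower, where 49.4% of all tested genes were higher. The median was -0.02, against 0.00 over all tested genes.

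**Figure D1:**
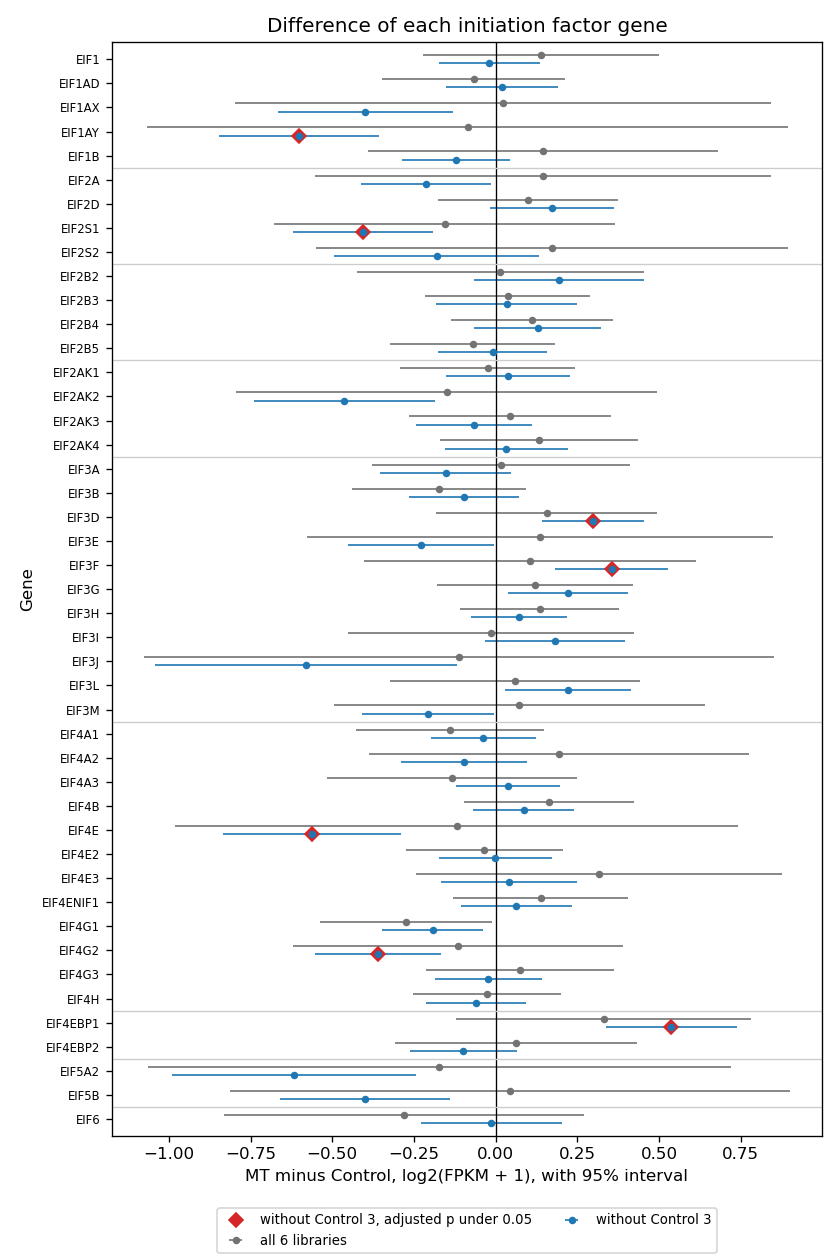
Each row is a gene, the x axis is the difference MT minus Control in log2(FPKM + 1) with its 95% interval, grey for all 6 libraries and blue without Control 3, and red diamonds mark an adjusted p under 0.05. Grey intervals include 0 in all rows but EIF4G1 (-0.54 to -0.01), and the 7 diamonds stand at EIF4EBP1, EIF3D and EIF3F to the right and EIF4E, EIF2S1, EIF4G2 and EIF1AY to the left.

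Much of the spread lay within the Control group, though the MT libraries also differed among themselves. Control 3 was below all 5 other libraries in 26 of the 45 genes (57.8%), against 41.7% of all tested genes, and above them in 15 (33.3%), against 32.4%. The mean of MT lay between Control 3 and the mean of Control 1 and Control 2 in 32 genes (71.1%), against 68.8% of all tested genes. MT 2 was the MT library nearest to Control 1 and Control 2 in 32 genes (71.1%), against 61.0% of all tested genes. Set against Control 1 and Control 2, the log2 level in Control 3 ran from -1.55 for EIF1AY to 0.80 for EIF6. Over the 45 genes this difference had a Pearson correlation of -0.18 and a Spearman correlation of -0.19 with log2 gene length, and over all tested genes of -0.09 and -0.20. These values are across genes, which share their libraries and are not independent replicates.

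**Figure D2:**
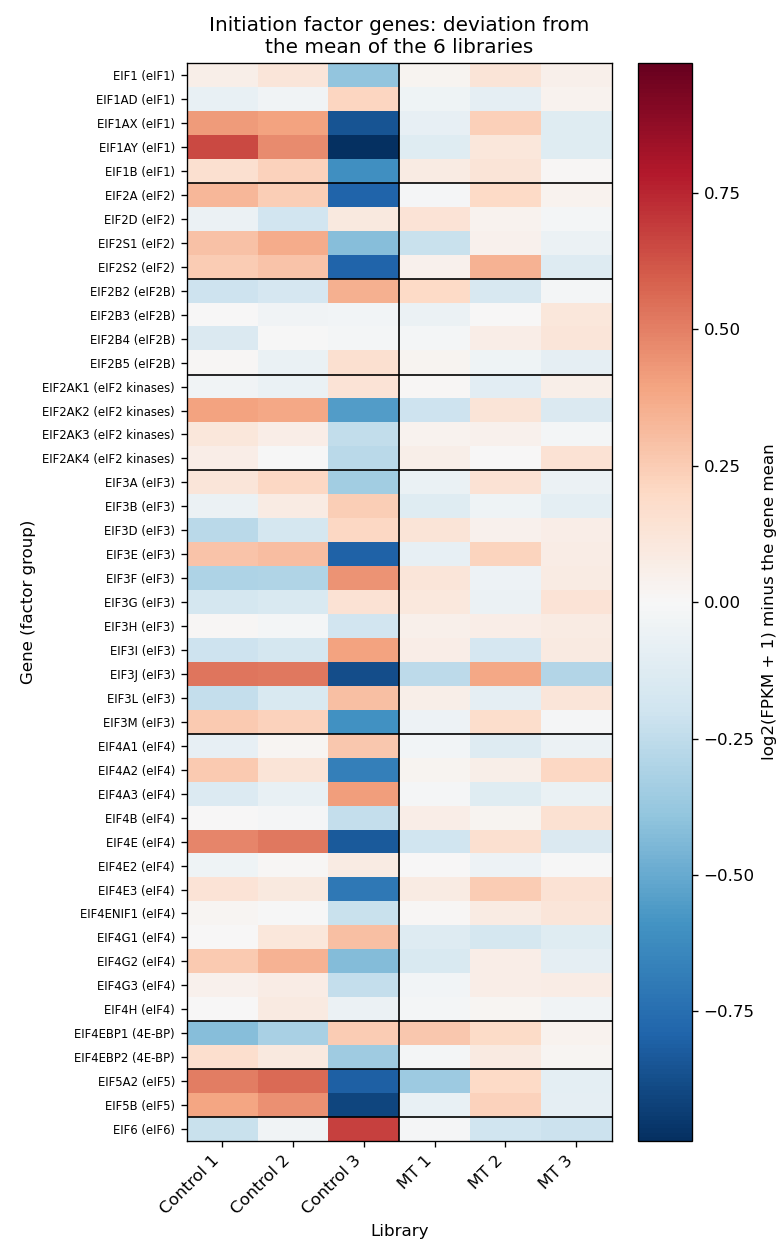
Rows are the 45 genes in their factor groups, columns the 6 libraries, and colour gives log2(FPKM + 1) minus the mean of the gene over the 6 libraries, red above and blue below. The column of Control 3 holds the strongest colours, among them blue for EIF1AY, EIF1AX, EIF5B, EIF3J and EIF4E and red for EIF6, while Control 1 and Control 2 look alike and the MT columns are paler.

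Among the cap-binding protein and its inhibitors, EIF4EBP1 rose and EIF4E fell without Control 3, and neither passed over 6 libraries. EIF4EBP1, the 4E-BP that binds eIF4E and blocks its contact with eIF4G, lies on chromosome 15 from 48423001 to 48443373 of Sscrofa11.1. It stood at 64.0, 68.7 and 102 FPKM in Control 1 to 3 and at 104, 98.6 and 88.5 in MT 1 to 3. All MT libraries were above Control 1 and Control 2, while Control 3 was as high as MT 1, so the groups overlapped. The means were 78.4 ± 21.0 and 96.9 ± 7.76 FPKM (SD, n = 3), a log2 difference of 0.33 (SE 0.19, adjusted p 0.9998 in limma). Without Control 3 it rose by 0.54 (SE 0.09, adjusted p 0.025). EIF4EBP2, a second 4E-BP with the same action, stood at 28.3, 27.0 and 19.5 FPKM in Control against 24.8, 26.9 and 25.6 in MT. Its MT values lay within the range of Control, with a log2 difference of 0.06 (95% interval -0.31 to 0.43).

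EIF4E, which binds the cap itself (chromosome 8, 121409633 to 121464467), stood at 14.51, 14.96 and 5.26 FPKM in Control against 8.69, 11.4 and 9.06 in MT. The MT libraries were below Control 1 and Control 2 and above Control 3. Over 6 libraries the log2 difference was -0.12 (SE 0.36), and without Control 3 it fell by 0.56 (SE 0.12, adjusted p 0.037 in limma). The difference turned to 0.09 and 0.11 without Control 1 and without Control 2. Its relative EIF4E2, which binds the cap weakly and acts in repression, stayed between 6.79 and 7.56 FPKM in all 6 libraries. EIF4E3, an atypical cap-binding relative, stood at 4.28, 4.12 and 1.94 FPKM in Control against 4.06, 4.71 and 4.30 in MT. Control 3 alone was low, and the log2 difference of 0.32 (95% interval -0.24 to 0.88) was 0.04 without it. EIF4ENIF1, which carries eIF4E into the nucleus, stood at 11.2, 10.9 and 9.31 FPKM in Control against 11.08, 11.68 and 12.02 in MT, and its groups overlapped.

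Of the scaffolds of the cap complex, EIF4G1 had lower values in every MT library than in any Control library, and EIF4G2 fell without Control 3. EIF4G1, which joins eIF4E, eIF4A and eIF3 (chromosome 13, 122203488 to 122225371), stood at 178, 192 and 219 FPKM in Control against at 163, 158 and 164 in MT. The means were 196 ± 20.7 and 162 ± 3.25 FPKM (SD, n = 3), a log2 difference of -0.27 (SE 0.11, adjusted p 0.9998 in limma), and -0.19 without Control 3 (adjusted p 0.085). EIF4G2, a scaffold that lacks the eIF4E-binding part and serves cap-independent starts (chromosome 2, 48666590 to 48678656), stood at 277, 292 and 171 FPKM in Control against 207, 241 and 217 in MT. Its MT values lay below Control 1 and Control 2 and above Control 3, with a log2 difference of -0.12 over 6 libraries. Without Control 3 it fell by 0.36 (SE 0.08, adjusted p 0.042 in limma). EIF4G3, a paralog of EIF4G1, was between 16.2 and 20.3 FPKM, with a log2 difference of 0.07 (95% interval -0.21 to 0.36).

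**Figure D3:**
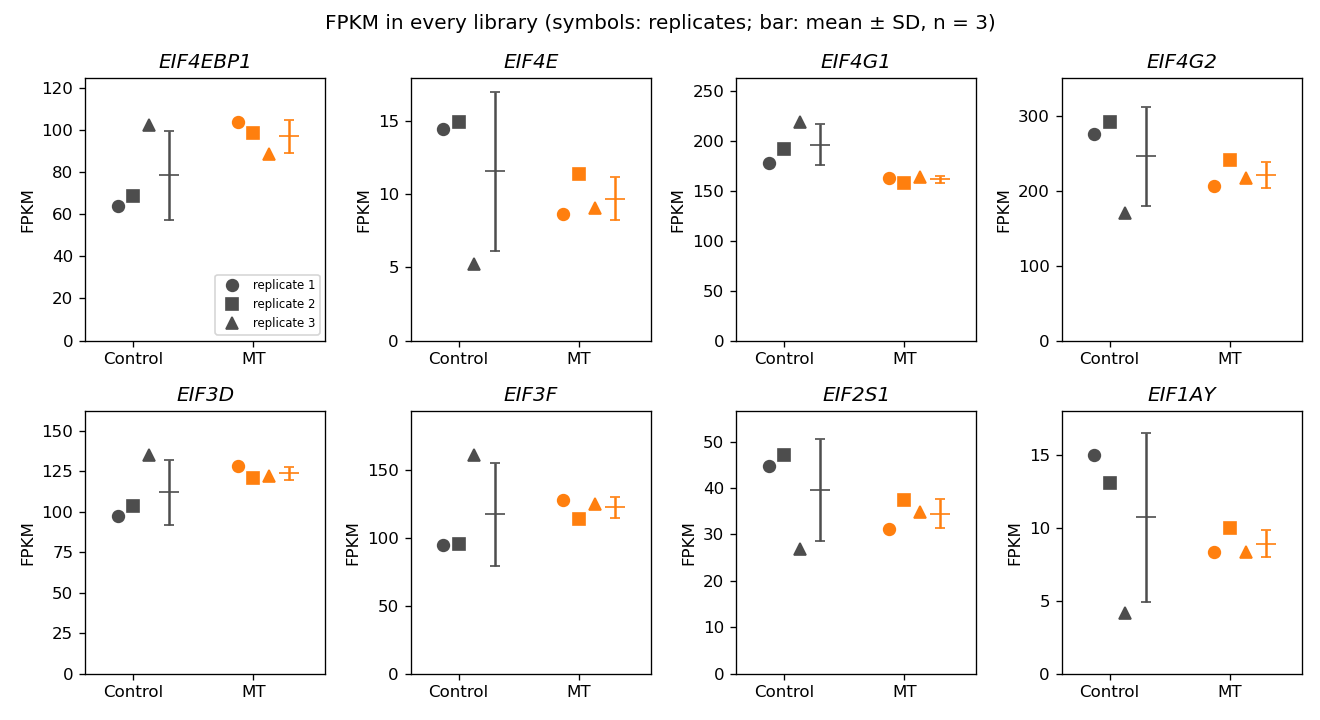
Each panel gives FPKM on a linear axis from 0 for a gene named above it, with Control in grey and MT in orange, symbols for replicates 1 to 3, and a bar for the mean ± SD (n = 3). The triangle of Control 3 lies apart from the other Control symbols in 7 of the 8 panels, on the side of MT or beyond it, and EIF4G1 is the panel in which it lies farther from MT.

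The helicases and their helpers did not pass in either fit. EIF4A1, the RNA helicase of the cap complex, was the most abundant gene of the set, at 274, 295 and 350.3 FPKM in Control against 285, 266 and 279 in MT. Its log2 difference was -0.14 (95% interval -0.43 to 0.15). EIF4A2, its paralog, stood at 239.9, 218 and 125 FPKM in Control against 204, 208 and 231 in MT. EIF4A3, a helicase of the exon junction complex, stood at 68.6, 71.9 and 101 FPKM in Control against 75.1, 69.4 and 72.1 in MT. In each of these helicases Control 3 lay outside the other libraries, low for EIF4A2 and high for EIF4A1 and EIF4A3. EIF4B, which stimulates the helicase, stood at 199, 197 and 168 FPKM in Control against 208, 203 and 220.4 in MT. All 3 MT values were above all Control values, by a log2 difference of 0.16 (95% interval -0.10 to 0.43). Control 3 was the lowest library, and without it the difference was 0.09 (adjusted p 0.37 in limma). EIF4H, a related helper, stayed between 50.2 and 55.6 FPKM, with Control 3 the lowest library. Genes with close copies, such as EIF4A1 and EIF4A2 or EIF1 and EIF1B, can share reads, and how such reads were counted is not given, so their split is uncertain.

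Within a library, the ratio of related genes is free of library scaling, and 6 pairs were compared by an exact two-sided permutation test, whose smallest p for 3 against 3 libraries is 0.1. The log2 ratio of EIF4EBP1 to EIF4E, both taken as FPKM + 1, was 2.07, 2.13 and 4.05 in Control and 3.43, 3.00 and 3.15 in MT. The MT values were above Control 1 and Control 2 by 1.10 on average and below Control 3, and the difference of the group means was 0.45 (exact p 0.5, adjusted 0.75). EIF4EBP1 to EIF4EBP2 gave 1.15, 1.31 and 2.34 in Control and 2.02, 1.84 and 1.75 in MT (exact p 0.5, adjusted 0.75). EIF4G1 to EIF4G3 gave 3.10, 3.18 and 3.68 in Control and 3.05, 2.91 and 2.96 in MT, which did not overlap (exact p 0.1, adjusted 0.6). EIF4A1 to EIF4A2 had 0.19, 0.43 and 1.48 in Control and 0.48, 0.35 and 0.27 in MT (exact p 0.8, adjusted 0.96). EIF4E to EIF4E2 had 0.99, 0.97 and -0.45 in Control and 0.26, 0.67 and 0.32 in MT (exact p 1, adjusted 1). The kinases EIF2AK3 to EIF2AK4 kept close values, -0.31, -0.29 and -0.33 in Control and -0.37, -0.31 and -0.51 in MT (exact p 0.2, adjusted 0.6).

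**Figure D4:**
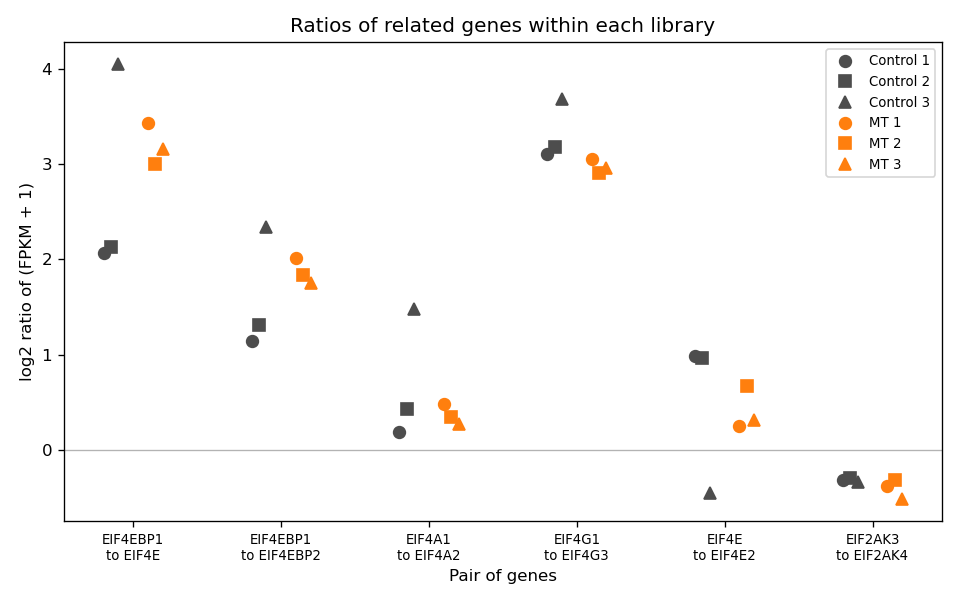
The y axis is the log2 ratio of (FPKM + 1) of 6 pairs of genes within each library, grey for Control, orange for MT, with a symbol per replicate. Control 3 is the highest point for EIF4EBP1 to EIF4E (4.05), EIF4EBP1 to EIF4EBP2 (2.34), EIF4A1 to EIF4A2 (1.48) and EIF4G1 to EIF4G3 (3.68), and the lowest for EIF4E to EIF4E2 (-0.45).

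The eIF2 complex carries the initiator tRNA. EIF2S1, its alpha subunit and the target of the eIF2 kinases (chromosome 7, 91085025 to 91109835), stood at 44.7, 47.1 and 26.9 FPKM in Control against 31.1, 37.5 and 34.9 in MT. The MT libraries were below Control 1 and Control 2 and above Control 3, with a log2 difference of -0.16 (SE 0.22). Without Control 3 it fell by 0.41 (SE 0.09, adjusted p 0.041 in limma). EIF2S2, the beta subunit, stood at 64.4, 65.8 and 30.7 FPKM in Control against 55.5, 68.8 and 49.2 in MT. Its groups overlapped, with a log2 difference of 0.17 over 6 libraries and -0.18 without Control 3. EIF2A and EIF2D, which can bring a tRNA to the ribosome without eIF2, had means of 32.7 and 20.6 FPKM, and log2 differences of 0.15 and 0.10. Control 3 was the lowest library for EIF2A, at 17.9 FPKM, and lay within the others for EIF2D.

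The exchange factor eIF2B, which reloads eIF2 with GTP, was measured by 4 genes, and 0 of them passed in limma in either fit. EIF2B5, the catalytic epsilon subunit, had a mean of 26.6 FPKM, EIF2B4 13.3, EIF2B2 12.5 and EIF2B3 3.17. EIF2B2 showed the widest spread, from 10.6 FPKM in Control 1 to 16.1 in Control 3. The log2 differences ran from -0.07 for EIF2B5 to 0.11 for EIF2B4.

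The kinases of eIF2 were all expressed at a low level, with means of 8.71 FPKM for EIF2AK1, 6.999 for EIF2AK4, 5.25 for EIF2AK3 and 3.24 for EIF2AK2. EIF2AK1, also called HRI and regulated by haem, stood at 8.49, 8.24 and 9.66 FPKM in Control against 8.77, 8.02 and 9.08 in MT. EIF2AK3, also called PERK and a sensor of unfolded protein in the endoplasmic reticulum, stood at 5.73, 5.53 and 4.26 in Control and 5.40, 5.43 and 5.17 in MT. EIF2AK4, also called GCN2 and activated by uncharged tRNA, stood at 7.36, 6.96 and 5.62 in Control and 7.28, 6.98 and 7.79 in MT. For these kinases the groups overlapped, and the 95% intervals of the log2 difference were -0.29 to 0.24, -0.27 to 0.35 and -0.17 to 0.44. EIF2AK2, also called PKR and activated by double-stranded RNA, stood at 4.44, 4.37 and 1.82 FPKM in Control against 2.57, 3.51 and 2.74 in MT. The MT libraries were below Control 1 and Control 2 and above Control 3. Its log2 difference was -0.15 over 6 libraries and -0.46 without Control 3 (SE 0.12, adjusted p 0.0502 in limma), just outside the threshold.

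The subunits of eIF3, the largest initiation factor, lay on both sides of the other libraries in Control 3. Their means ran from 18.6 FPKM for EIF3J, a loosely bound subunit, to 175 for EIF3G, an RNA-binding subunit. EIF3D, a subunit that can itself bind the cap of some mRNAs (chromosome 5, 11213312 to 11229158), stood at 97.2, 104 and 135 FPKM in Control against 128, 121 and 122 in MT. The MT values were above Control 1 and Control 2 and below Control 3, and without Control 3 it rose by 0.30 (SE 0.07, adjusted p 0.041 in limma), against 0.16 over 6 libraries. EIF3F (chromosome 9, 1291660 to 1297987) stood at 95.2, 95.9 and 161 FPKM in Control against 129, 114 and 125 in MT, in the same order. It rose by 0.36 without Control 3 (SE 0.07, adjusted p 0.037 in limma), and its difference of 0.11 over 6 libraries turned to -0.02 without Control 1 and without Control 2. EIF3H stood at 28.8, 28.2 and 24.9 FPKM in Control against 29.7, 30.0 and 30.4 in MT, with all MT values higher, by 0.13 (95% interval -0.11 to 0.38). Without Control 3 the difference of EIF3H was 0.07 (adjusted p 0.42 in limma). EIF3B, part of the core with EIF3G and EIF3I, stood at 80.4, 88.9 and 99.3 FPKM in Control against 77.1, 81.5 and 78.6 in MT, a log2 difference of -0.17 (95% interval -0.44 to 0.09).

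Against Control 1 and Control 2, Control 3 was higher in 6 of the 11 measured subunits, EIF3B, EIF3D, EIF3F, EIF3G, EIF3I and EIF3L, by log2 values from 0.23 to 0.75. It was lower in the other 5, EIF3A, EIF3E, EIF3H, EIF3J and EIF3M, by values from -1.40 to -0.19. In each of the 11 it lay outside the range of the other 5 libraries. The same held for each of the 12 tested eIF4 genes, with 4 above and 8 below. Over all tested genes Control 3 was above in 32.4% and below in 41.7%. The largest gap was in EIF3J, at 25.6, 25.5 and 9.06 FPKM in Control against 14.5, 23.1 and 14.1 in MT. MT 2 was near Control 1 and Control 2 there, while MT 1 and MT 3 were lower. Without Control 3 its log2 difference of -0.58 had an adjusted p of 0.085 in limma. EIF3A, the large scaffold subunit, EIF3E, EIF3I, EIF3L and EIF3M had log2 differences from -0.01 to 0.14 over 6 libraries. Without Control 3 the differences were -0.15 for EIF3A, -0.23 for EIF3E and -0.21 for EIF3M, and 0.18 for EIF3I and 0.22 for EIF3L. None of them passed in that fit.

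Of the factors of start codon selection, EIF1 was the most abundant, at 176, 185 and 129.6 FPKM in Control against 173, 185 and 176 in MT. Control 3 was the lowest library and the other 5 were alike. EIF1AX and EIF1AY encode eIF1A from the X and the Y chromosome, and as near-identical copies they can share reads, so each value is uncertain. EIF1AX stood at 46.7, 45.9 and 18.7 FPKM in Control against 32.7, 40.9 and 31.7 in MT, a log2 difference of 0.02 over 6 libraries and -0.40 without Control 3 (adjusted p 0.060 in limma). EIF1AY (Y, 9687350 to 9704489) stood at 14.96, 13.05 and 4.13 FPKM in Control against 8.35, 9.99 and 8.35 in MT, and fell by 0.60 without Control 3 (SE 0.10, adjusted p 0.029 in limma). In both, the MT libraries lay between Control 3 and the other Control libraries. The difference of EIF1AY turned to 0.22 without Control 1 and to 0.13 without Control 2. EIF1B, a paralog of EIF1, and EIF1AD, a protein with an eIF1A-like domain, had means of 21.9 and 14.8 FPKM and log2 differences of 0.15 and -0.07.

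Of the late factors, EIF5B and EIF5A2 had MT values between Control 3 and the other Control libraries, and EIF6 did not. EIF5B, the GTPase that joins the ribosomal subunits, stood at 22.2, 23.1 and 8.42 FPKM in Control against 15.8, 19.7 and 15.6 in MT, a log2 difference of 0.04 (95% interval -0.81 to 0.90). EIF5A2, the less common form of the hypusine-bearing factor eIF5A, stood at 4.48, 4.68 and 1.21 FPKM in Control against 2.01, 3.43 and 2.61 in MT. Its 128 to 472 reads per library were few, and its log2 difference was -0.17 over 6 libraries and -0.62 without Control 3 (adjusted p 0.051 in limma). EIF6, which keeps the large ribosomal subunit from joining too early, stood at 139, 157 and 259 FPKM in Control against 160.2, 141 and 139 in MT. Control 3 alone was high, and the log2 difference of -0.28 (95% interval -0.83 to 0.27) was -0.01 without it.

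Other genes of translation control were taken from a list of 61, of which 55 were in the table and 52 were tested, and 0 passed over 6 libraries in limma, with 8 at an unadjusted p under 0.05, against 4.72% of all tested genes. Their median log2 difference was 0.06, with 36 higher and 16 lower, where 56.0% of all tested genes were higher. Without Control 3, 7 of 52 rose and 6 fell, against 4.28% and 6.62% of all tested genes. Among 8 tested factors translated under eIF2 phosphorylation and their targets, 4 rose without Control 3, NUPR1, ASNS, CHAC1 and TRIB3, and 0 fell. CHAC1, which degrades glutathione, stood at 10.35, 10.99 and 14.78 FPKM in Control against 32.0, 36.6 and 19.5 in MT, and TRIB3, a pseudokinase, at 14.1, 13.6 and 16.9 and at 27.3, 31.3 and 19.4. In both all MT values were above all Control values. The log2 differences over 6 libraries were 1.19 for CHAC1, 0.75 for TRIB3, 1.12 for NUPR1 and 1.07 for ASNS. Of the transcription factors, CEBPB stood at 111, 133 and 205 FPKM in Control against 105, 99.8 and 102 in MT. All MT values were below all Control values, with a log2 difference of -0.50, and of -0.25 without Control 3 (adjusted p 0.091 in limma). ATF3, ATF5 and CEBPG had differences of 0.07, 0.00 and -0.01, and ATF4 itself was not on the symbol map used here.

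Among 9 tested regulators of eIF2 phosphorylation, HSPA5, the chaperone that holds EIF2AK3 inactive, stood at 827, 854 and 774 FPKM in Control against 507, 575 and 487 in MT, and fell by 0.69 without Control 3 (adjusted p 0.018 in limma). PPP1R15A, the stress-induced subunit of the eIF2 phosphatase, stood at 15.4, 15.1 and 19.2 FPKM in Control against 18.1, 16.3 and 18.2 in MT, and did not pass. PPP1CC, of the same branch, stood at 42.4, 42.2 and 21.7 FPKM in Control against 27.2, 29.8 and 30.9 in MT. Without Control 3 it fell by 0.52 (adjusted p 0.024 in limma), with a log2 difference of -0.21 over 6 libraries. In the TOR branch 16 of 17 genes were higher over 6 libraries, with a median of 0.09, where 56.0% of all tested genes were higher. The 16 differences ran from 0.003 for RPS6KB1 to 0.47 for SESN2. Without Control 3, 11 were higher and 6 lower, with a median of 0.16, where 49.4% of all tested genes were higher. The branch holds subunits of the TOR complexes and also genes that restrain TOR, so a shared direction does not show TOR activity. SESN2, which restrains TOR when leucine is short, stood at 5.90, 5.99 and 7.40 FPKM in Control against 9.48, 9.79 and 8.54 in MT. It rose by 0.56 without Control 3 (adjusted p 0.024 in limma). MLST8, a subunit of the TOR complexes, rose by 0.34 in that fit (adjusted p 0.047 in limma) and by 0.16 over 6 libraries. For MLST8, Control 3, at 3.88 FPKM, was above all MT libraries (3.09 to 3.36). The kinase MTOR stood at 8.94, 8.64 and 11.2 FPKM in Control against 10.6, 10.4 and 10.9 in MT. Elongation, termination, poly(A) and scanning genes had medians from -0.06 to 0.14 over 6 libraries. Without Control 3 the medians were 0.08, -0.26, 0.03 and -0.23, and 4 of 4 scanning and cap genes were lower. In that fit the termination factor ETF1 fell by 0.32, the recycling factor ABCE1 by 0.46 and the cap-binding NCBP2 by 0.43 (adjusted p 0.049, 0.039 and 0.033 in limma). Their differences over 6 libraries were -0.09, -0.03 and -0.19, and Control 3, at 20.7, 10.4 and 7.52 FPKM, was below all MT libraries. In the same fit EEF1E1, a member of the tRNA synthetase complex, fell by 0.34 (adjusted p 0.040 in limma). The poly(A)-binding PABPC4 rose by 0.28 (adjusted p 0.047 in limma). For EEF1E1 and PABPC4 the groups did not overlap over 6 libraries, with differences of -0.32 and 0.25 that did not pass.

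**Figure D5:**
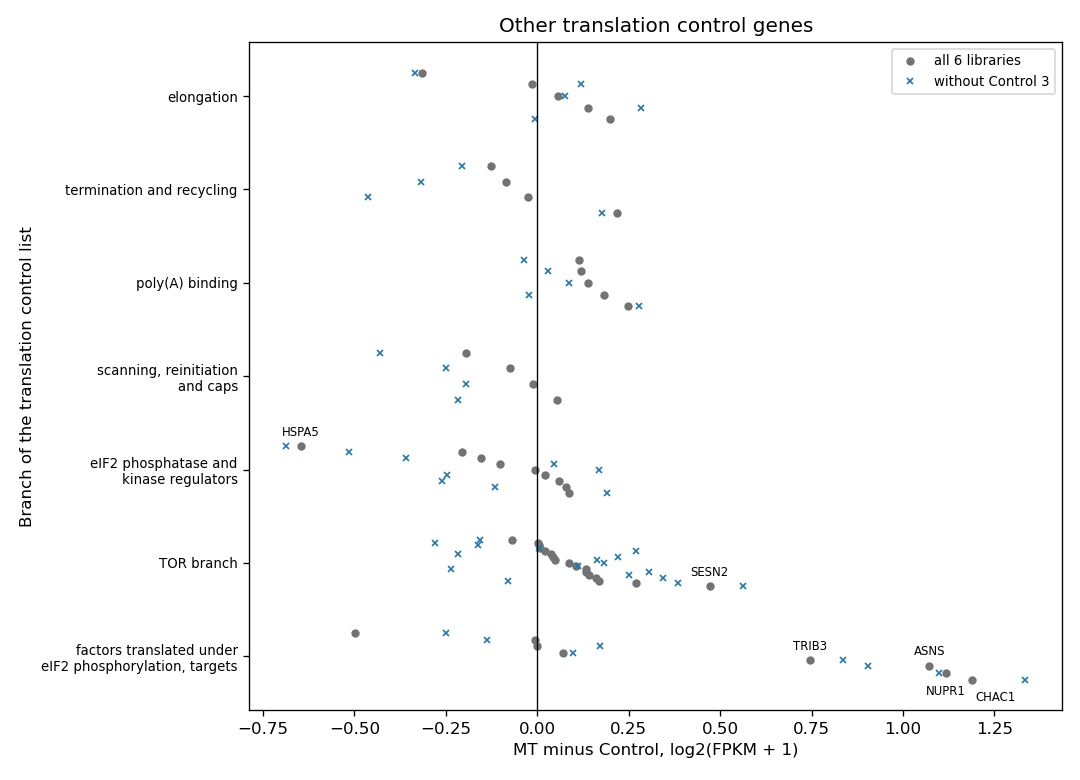
Each row is a branch of the translation control list and each point a gene, at its difference MT minus Control in log2(FPKM + 1), grey dots for all 6 libraries and blue crosses without Control 3. CHAC1, NUPR1, ASNS and TRIB3 lie at 0.75 to 1.19 on the right of the lowest row and HSPA5, in the row of eIF2 phosphatase and kinase regulators, at -0.65 on the left, while most genes lie near 0.

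Outside both lists, the 3 genes whose log2 levels over the 6 libraries were most like those of EIF4EBP1 were LSM14B (Pearson 0.994), MRM1 (0.993) and NFATC4 (0.990). The libraries share their scaling, and many of 10950 genes can match a pattern of 6 values. LSM14B, an RNA-binding protein, stood at 13.2, 14.2 and 18.0 FPKM in Control against 17.9, 17.6 and 16.7 in MT, with Control 3 again at the MT level.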

How the data were processed

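RNA of 6 libraries of pig Sertoli cells, 3 Control and 3 MT by their titles, was measured. The deposited values are FPKM, which the authors scaled to gene length and library size, with 1 column per library and replicates not pooled. Per the submitters' processing notes, the build was Sscrofa11.1 and the tools were HISAT2, Subread, featureCounts and bcl2fastq. Not given in the sources used here are versions, annotation release, strand setting, filters and the counting of shared reads. FPKM is relative to the library, so a shift in abundant RNA moves all values.

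Symbols were matched to 13173 of 20731 Ensembl identifiers (63.5%), 9483 of them among the 10950 tested genes. Positions are those of the RefSeq annotation of Sscrofa11.1, by symbol. Whole-number lengths, totals and reads were solved from the steps of the values. Totals lay within 0.0118 of whole numbers, 10950 tested genes (100.0%) gave whole reads within 0.01, and 99.6% of each total fell on genes in the table. Where the 6 read numbers of a gene share a divisor, the true ones may be a multiple.

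Genes with a mean of 1 FPKM or more were compared with limma 3.58.1 in R 4.3.3 on log2(FPKM + 1), which understates the change of low genes (lmFit, eBayes with a variance trend, group as the only term, two-sided, Benjamini-Hochberg over all 10950 genes, threshold 0.05). Intervals are 95% and not adjusted. Pair ratios used exact permutation tests in scipy 1.17.1, adjusted over 6 pairs. The pair of EIF5A to EIF5A2 had no row for EIF5A. Python 3.11.15, numpy 2.4.6, pandas 2.3.3 and matplotlib 3.10.9 were used. The model was also run on simulated data, in which no library stood apart as Control 3 does, so that case was not tested.

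The members, the lists and the choice to leave out Control 3 were chosen with earlier results of these data known. The rule for full values took the 6 smallest p-values in each direction, the eIF2 kinases, the 4E-BPs, EIF4E and the eIF2 subunits, up to 6 of the translation control list and 3 like EIF4EBP1. Values of other genes were chosen after they were seen. Alternatives were other pseudocounts, filters, scalings, variance models, sample weights, a replicate block, limma voom on recovered reads and each library left out. Voom without Control 3 and fits without 2 libraries were added after seeing the data.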

Additional observations from a re-analysis of the deposited data

How the results depend on the processing

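Over 6 libraries, other pseudocounts, filters, scalings, no variance trend, a replicate block and voom each passed 0 of the initiation factor genes and 0 of all genes. Sample weights (0.05 for Control 3) passed 24 of 45 members and 6309 of all 10950 genes. Leaving out a library gave 0 to 7 members and 0 to 1194 genes, the highest without Control 3 (15.6% of members and 10.9% of all tested genes). Values that did not overlap were found in 3 to 26 members with a library left out, the highest without Control 3 (57.8%), where 56.2% of all tested genes did not overlap. The median over the members ran from -0.05 to 0.11 over the 16 alternatives, and no scaling moved the median of all genes by more than 0.03. EIF4EBP1 was higher in MT (0.20 to 0.56) and EIF4G1 lower (-0.34 to -0.19) in all 16.

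Without Control 3, quantile normalisation and median centring kept the counts within 1.5 times. Voom passed 12 members and 2366 genes, among them EIF2AK2, EIF5A2, EIF5B, EIF1AX and EIF3J, and with a further library left out there were 0 to 21 members and 8 to 4451 genes.

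The sign turned in 13 of 35 results for single genes and pairs. The 35 cover the pairs, the members given full values by rule and those that passed without Control 3. They count the 7 genes that passed without Control 3 again for that fit, and no sign turned there. Other members were not counted, and some of them also turned without Control 3, such as EIF3E (0.14 to -0.23) and EIF5B (0.04 to -0.40). Others kept their sign, such as EIF2D (0.10 to 0.17). With sample weights EIF6 came to 0.0073, EIF4A3 0.053, EIF2AK1 0.070, EIF2AK3 -0.045, EIF4EBP2 -0.111 and EIF2S2 -0.232. With a library left out the range was -0.236 to 0.039 for EIF4A3, -0.065 to 0.038 for EIF2AK1, -0.463 to 0.011 for EIF2AK2, -0.067 to 0.110 for EIF2AK3, -0.099 to 0.159 for EIF4EBP2, -0.562 to 0.112 for EIF4E, -0.180 to 0.358 for EIF2S2, -0.601 to 0.218 for EIF1AY, -0.022 to 0.355 for EIF3F and -0.360 to 0.026 for EIF4G2. The pair EIF4A1 to EIF4A2 ran from -0.588 to 0.058 and EIF4E to EIF4E2 from -0.561 to 0.157. The cause was not tested.

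Same-numbered Control and MT libraries deviated from their group means with correlations of -0.44, 0.63 and 0.34, and Control 1 matched MT 2 best (0.50), so the numbers were not taken as pairs. The replicate block passed 0 genes. Depth limits, among others, EIF5A2 (128 to 472 reads per library), EIF1AY (145 to 491) and EIF4E3 (146 to 347). Planned counts of promoter motifs were not run, since promoter sequence was not used here.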

Other observations

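Around EIF4EBP1 on chromosome 15, 12 other genes with a row lie within 300 kb by the RefSeq annotation of Sscrofa11.1, and 10 of them were tested. This view was chosen after the values were seen. Over 6 libraries 0 of the 10 passed in limma, as did 0 of all tested genes. Without Control 3, 1 of the 10 passed, where 10.9% of all tested genes did. It was ADGRA2, an adhesion receptor whose gene lies 129580 bases from EIF4EBP1. The level of ADGRA2 was 0.94 ± 0.17 FPKM in Control against 3.96 ± 0.73 in MT (SD, n = 3), and Control 3, at 0.94, lay with the other Control libraries, unlike the case of EIF4EBP1. ASH2L, the nearest neighbour at 5441 bases, stood at 11.4 ± 0.65 and 11.2 ± 0.52 FPKM, and BRF2, which serves RNA polymerase III, at 4.39 ± 1.34 and 4.74 ± 0.44. The transcription factor gene ZNF703 stood at 6.65 ± 1.02 and 8.35 ± 0.51 FPKM, with all MT values above all Control values and an adjusted p of 0.053 without Control 3.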
